A study of Arabidopsis thaliana with 24 samples.

Results

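The 10 genes described here encode enzymes and helper proteins of chlorophyll synthesis in Arabidopsis thaliana: PORA, PORB, PORC, HEMA1, CHLH, GUN4, CAO, CHLG, DVR and CRD1. They were picked by locus identifier, with earlier results of these data known, so their share of listed genes is not that of a blind choice. Of the 10 genes, 9 had a row among the 4422 genes that the authors listed as changed in at least 1 of 2 gene comparisons, and CHLG had none.

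Chlorophyll is built from glutamate through 5-aminolevulinic acid (ALA) and a chain of porphyrins. HEMA1, a glutamyl-tRNA reductase, starts the pathway, and magnesium chelatase, with CHLH as its porphyrin-binding subunit and GUN4 as its activator, commits protoporphyrin to chlorophyll rather than to heme. CRD1 is a subunit of the cyclase that closes a ring of protochlorophyllide, and DVR is a divinyl reductase. The POR enzymes then reduce protochlorophyllide to chlorophyllide, a reaction that in flowering plants needs light. PORA is the form known for accumulating in dark-grown seedlings, PORB is made in darkness and in light, and PORC is the form of green tissue. CAO makes chlorophyll b, and CHLG attaches the phytol tail.

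RNA was sequenced from whole seedlings of 4 lines, all labelled as Col-0 background, in 8 groups of 3 libraries each. MLB carries PHYB, the gene of the red-light receptor phytochrome B, under the ML1 promoter of the epidermis in the phyB-9 mutant. EMS27 is a mutant of the splicing-related gene RRC1 whose control line is MLB, and rrc1-689 is an RRC1 mutant whose control is wild-type Col-0. Seeds were chilled for 2 days and lit with white light (50 µmol per m2 and s) for 6 h. They then spent 60 h in darkness or in red light (19 µmol per m2 and s), and the labels give 4 °C for each of these light stages. Gene results compared MLB in red light with MLB in darkness, and MLB with EMS27 in red light. Splicing results compared MLB with EMS27 and Col-0 with rrc1-689, all in red light. Whether the 3 libraries of a group are separate cultures was not stated, and p-values therefore cover a spread among libraries that may be technical.

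The authors' deposited tables held a log2 fold change, a p-value and an FDR per gene, with no level and no value per library, so the values below have no replicate error of their own and the depth behind them is unknown. A gene had a row only where its log2 fold change exceeded 1 in size at an FDR under 0.01. A gene without a row may have changed less, may have missed the FDR or may not have been tested. Neither RRC1 nor PHYB had a row in either comparison, so the line labels could not be checked by their levels. Where fewer cells express a gene or each cell holds less of its RNA, whole-seedling values cannot tell these apart.

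The first comparison asked which genes respond to red light where phytochrome B is made in the epidermis. In red light 7 of the 10 chlorophyll genes rose, from HEMA1 at the entry of the pathway to CAO at its end, whereas the POR genes split. PORA and PORB fell and PORC rose. Over all genes tested, 19.5% were listed, 12.8% as higher in red light and 6.76% as lower. Among the 7 that rose, the median log2 fold change was 2.62, or 6.15-fold, with a range of 1.99 to 3.48, beside a median of 1.75 over the 2540 genes listed as higher in red light. That median is the value of GUN4, which is uncertain for a reason given below. The values next to it in size were 2.60 for CRD1 and 2.86 for HEMA1.

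**Figure D1:**
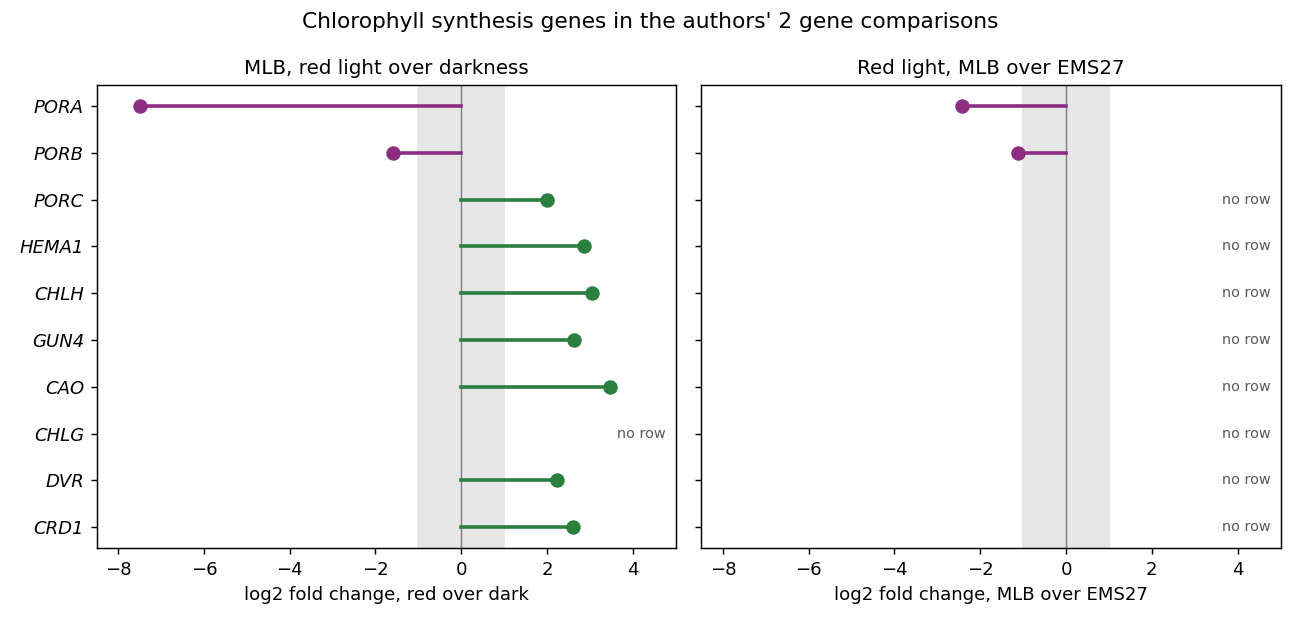
log2 fold changes of the 10 genes in MLB in red light over darkness (left) and in red light in MLB over EMS27 (right), as the authors' deposited tables gave them; the grey band spans -1 to 1, where no gene is listed, and "no row" marks a gene not listed. PORA and PORB lie left of the band in both panels (-7.48 and -1.59, then -2.43 and -1.12), and the 7 genes right of the band in the left panel have no row in the right one. Over all genes, 3887 were listed in the left comparison and 1146 in the right, so most genes of the left have no row in the right.

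HEMA1 (AT1G58290, chromosome 1, 21623700 to 21626402) rose 7.25-fold in the authors' deposited table, a log2 fold change of 2.86 with an FDR of 9.14e-123. Its homologues HEMA2 and HEMA3, and FLU, a repressor of ALA synthesis in darkness, had no row. HEMA1 was the 1 gene listed of 8 in ALA synthesis, or 12.5%, a share near the 12.8% of all genes tested that were listed as higher.

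The magnesium chelatase genes rose together except CHLD. CHLH (AT5G13630, chromosome 5, 4387307 to 4392429) rose 8.32-fold in the authors' deposited table (log2 fold change 3.06, FDR 3.79e-86). GUN4 (AT3G59400, chromosome 3, 21948501 to 21949796) had a log2 fold change of 2.62 there (FDR 7.37e-93). The ATPase subunit genes CHLI1 and CHLI2, which are not among the 10, gave 2.12 and 1.46 in the authors' deposited table, and CHLD, the remaining subunit, had no row. The value of GUN4 is uncertain: 946 of its 1296 exonic bases (73%) are also exon of AT3G59410, GCN2, on the opposite strand. GCN2 itself was listed as higher in red light, at 1.98 in the authors' deposited table. Whether reads were counted by strand was not given in the sources used here, and reads of the shared part cannot be assigned without it.

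CRD1 (AT3G56940, chromosome 3, 21076505 to 21078443), a subunit of the cyclase that closes the fifth ring, rose 6.08-fold in the authors' deposited table (log2 fold change 2.60, FDR 4.25e-67). CRD1 shares 147 of its 1493 exonic bases with AT3G56950 and 45 with the noncoding gene AT3G08795, both on the opposite strand. These neighbours were at 1.22 and 2.63 in the authors' deposited table. DVR (AT5G18660, chromosome 5, 6220710 to 6222300), the divinyl reductase gene, rose 4.73-fold (log2 fold change 2.24, FDR 1.79e-62) in the authors' deposited table, and no other locus overlaps it.

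CAO (AT1G44446, chromosome 1, 16848308 to 16851271) had the largest rise of the 10 genes, 11.1-fold in the authors' deposited table (log2 fold change 3.48, FDR 4.17e-177). By p-value it stood at rank 169 of the 19916 genes tested, and by size at rank 280 of the 2540 genes listed as higher. CHLG (AT3G51820, chromosome 3, 19215930 to 19219128), which acts after the POR step like CAO, had no row. Its neighbour at a distance of 98 bases, the late embryogenesis gene EM1 (AT3G51810), was listed at -2.74 in the authors' deposited table.

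The POR genes moved apart. PORA (AT5G54190, chromosome 5, 21990864 to 21992814) was 179-fold lower in red light in the authors' deposited table, at a log2 fold change of -7.48 and an FDR of 2.81e-210. Only 6 of the 1347 genes listed as lower in red light fell further, and by p-value PORA stood at rank 121 of 19916. PORB (AT4G27440, chromosome 4, 13725546 to 13727440) was 3-fold lower (log2 fold change -1.59, FDR 2.62e-25), at rank 567 of the 1347 falls by size in the authors' deposited table. The median log2 fold change of those 1347 genes was -1.467. PORC (AT1G03630, chromosome 1, 907523 to 909650) was 3.97-fold higher in red light in the authors' deposited table (log2 fold change 1.99, FDR 1.03e-72), the smallest of the 7 rises.

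**Figure D2:**
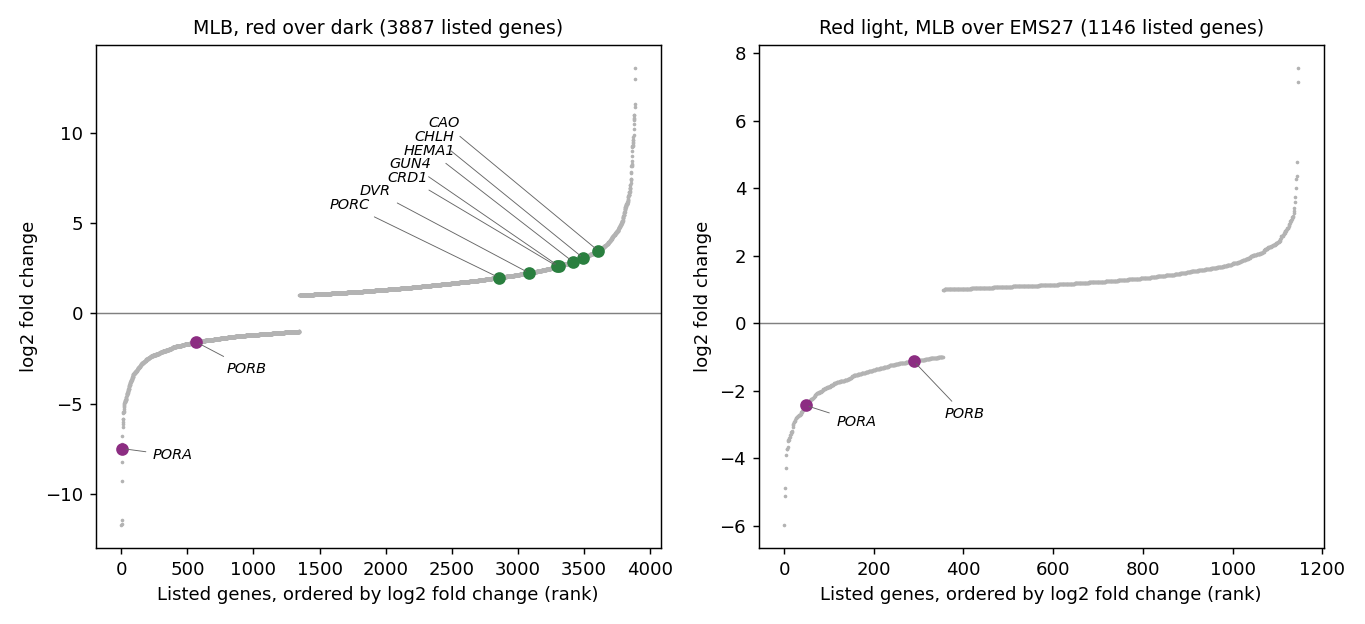
All genes listed in each comparison, ordered by log2 fold change (x axis, rank; y axis, log2 fold change), with the chlorophyll synthesis genes marked and named. In red light over darkness (3887 genes) PORA sits near the lowest end and PORB near the middle of the falls by rank. The 7 rises lie between 1.99 and 3.48. In MLB over EMS27 (1146 genes) only PORA and PORB are present.

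The POR genes are related in sequence, so their reads could be confused, and the start of their coding sequence is shown because PORA and PORB share their longest identical run there, the first 44 bases. Each line gives coding bases 1 to 60 of TAIR10.1 in lower case, with capitals marking the bases that differ from PORA.
PORA: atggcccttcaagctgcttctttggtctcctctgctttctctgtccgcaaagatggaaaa
PORB: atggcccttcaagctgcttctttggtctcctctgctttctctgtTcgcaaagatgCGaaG
PORC: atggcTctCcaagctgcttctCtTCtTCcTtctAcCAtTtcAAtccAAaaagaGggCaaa
PORB differs from PORA at 4 of these 60 bases and PORC at 18.

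Over the whole coding sequence PORA and PORB were identical at 83.3% of 1206 aligned bases, PORA and PORC at 73.9% and PORB and PORC at 73.5%. The longest runs that PORC shared with PORA and with PORB were 18 and 20 bases. No stretch of 50 exonic bases of any of the 10 genes occurred elsewhere in the genome. An exact match of that length therefore has a single place in the genome for each POR gene. Neither the read length nor the handling of reads with several matches is given in the sources used here. PORB shares 71 of its 1641 exonic bases with AT4G27450 on the opposite strand, which was at -2.76 in the authors' deposited table, and PORC shares 22 of 1787 with AT1G03620, which had no row. In the TAIR10.1 annotation 5 of the 10 genes overlap another locus, and for PORB, GUN4 and CRD1 that locus was itself listed. The authors' deposited table marked no overlapping locus for any of the members with a row.

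**Figure D3:**
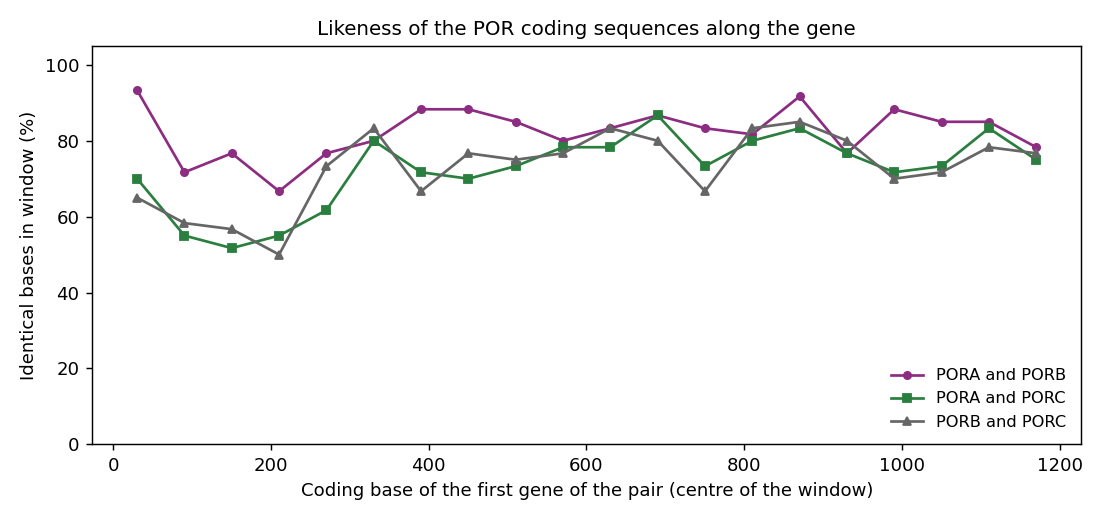
Percentage of identical bases in successive 60-base windows along the coding sequence of each POR pair (x axis, coding base of the first gene named at the window's centre; y axis, identical bases, with gaps counted as not identical). The line of PORA and PORB lies above the others over the first 300 bases, and from there on the 3 lines come closer and meet or cross in places.

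The wider pathway showed where the listed changes fell. Of 55 tetrapyrrole genes, 19 rose and 2 fell in red light, the 2 being PORA and PORB, and 34 had no row. Of the 45 outside the 10 members, 12 were listed (26.7%), all as higher. Over all genes tested, 19.5% were listed in either direction and 12.8% as higher. In the chlorophyll branch, from magnesium chelatase to geranylgeranyl reductase, 9 of 15 rose, 2 fell and 4 had no row. The methyltransferase gene CHLM was at 1.88 in the authors' deposited table, whereas the cyclase factor gene LCAA and the geranylgeranyl reductase gene CHLP had no row. Upstream, 4 of the 10 porphyrin genes rose: HEME1, a uroporphyrinogen decarboxylase gene, at 2.03, its homologue HEME2 at 1.32, HEMC at 1.24 and PPOX1 at 1.17 in the authors' deposited table. The median log2 fold change of those 4 was 1.28, beside 2.12 for the 11 listed genes of the chlorophyll branch, the falls of PORA and PORB included.

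In the side branches the shares of genes listed as higher were 22.2% for heme and bilins, 20% for the chlorophyll cycle and breakdown and 33.3% for the 3 partner proteins, on small counts, beside 12.8% of all genes tested. In the heme and bilin branch, 2 of 9 rose, the ferrochelatase gene FC2 at 1.67 and HO2 at 1.39 in the authors' deposited table, and FC1, HY1 and HY2 had no row. Of 10 genes of the chlorophyll cycle and breakdown, 2 rose, the chlorophyllase gene CLH1 at 2.08 and the catabolite reductase gene RCCR at 1.43 in the authors' deposited table. RCCR and HEME1 were each marked there as overlapping another locus, and the TAIR10.1 overlaps of genes outside the 10 were not searched. Of 3 partner proteins, LIL3:1, which holds geranylgeranyl reductase at the membrane, rose, at 1.05 in the authors' deposited table.

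**Figure D4:**
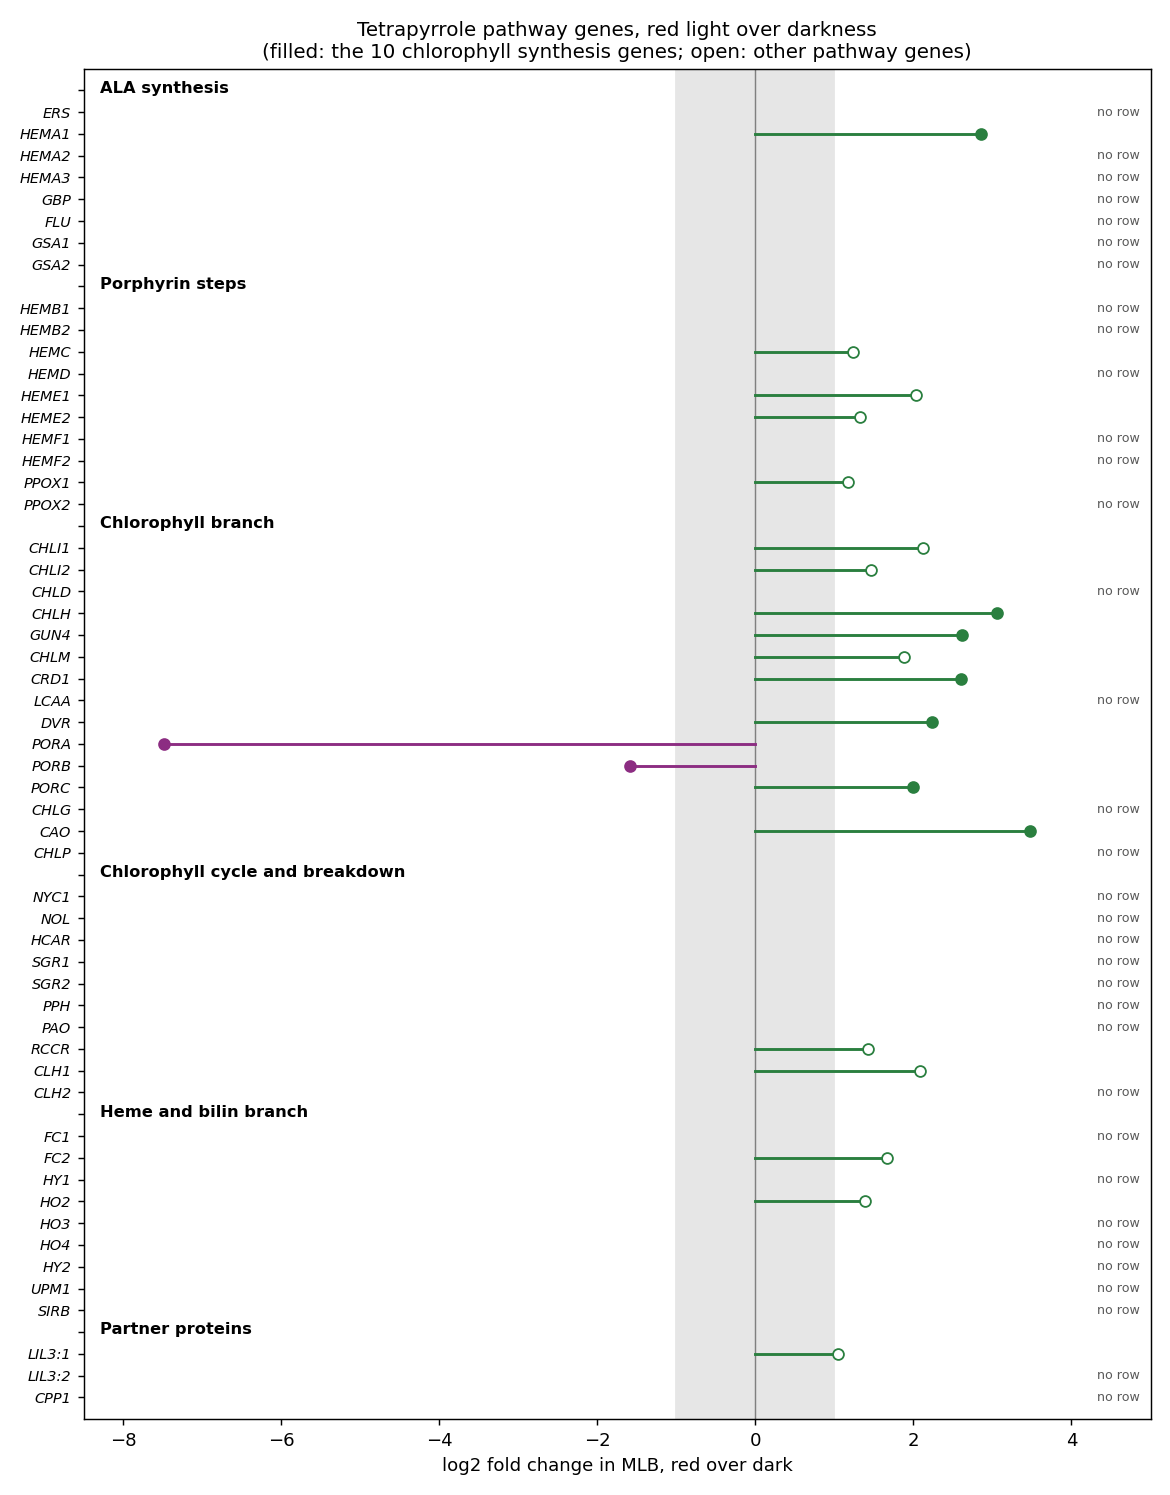
log2 fold change in MLB in red light over darkness (x axis) for 55 tetrapyrrole genes grouped by step (y axis); filled points are the 10 chlorophyll synthesis genes, open points are other pathway genes, "no row" marks genes not listed and the grey band spans -1 to 1. The 19 rises lie between 1.05 and 3.48, and PORA and PORB are the 2 points to the left.

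The second comparison set MLB beside the rrc1 mutant EMS27, both grown in red light. PORA and PORB were higher in EMS27, and the other 8 of the 10 genes had no row, among them all 7 that red light raised in MLB. This comparison listed 1146 genes beside 3887 for red light over darkness, so most genes that red light changed had no row here. A missing row for these 7 genes therefore says little about them. Over all genes tested, 5.99% were listed, 4.14% as higher in MLB and 1.85% as higher in EMS27. None of the other 45 tetrapyrrole genes had a row either. In the authors' deposited table PORA was higher in EMS27 by 5.4-fold (log2 fold change of MLB over EMS27 -2.43, FDR 2.97e-32), at rank 48 of the 354 genes higher in EMS27 by size. PORB was 2.18-fold higher in EMS27 (-1.12, FDR 4.83e-18), at rank 289 of 354 in the authors' deposited table. Only PORA would pass a threshold of 2 on the log2 scale.

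Both comparisons hold the MLB red libraries, so their values are set side by side without a test. PORA was 179-fold lower in red light than in darkness in MLB and 5.4-fold higher in EMS27 than in MLB in the authors' deposited tables. For PORB the corresponding values were 3-fold and 2.18-fold in the authors' deposited tables. The difference of the 2 log2 values places EMS27 in red light below MLB in darkness by 33.2-fold for PORA and by 1.38-fold for PORB. This is arithmetic on 2 separately normalised fits and has no error or test. The deposited gene comparisons did not include EMS27 in darkness, so whether it differs from MLB there was not tested. PORA and PORB are the members in the list that the authors made of genes present in both tables. Their place in it follows from their rows in each table and adds nothing to them. That list can hold no more than the 1146 genes listed for MLB over EMS27, and whether it is enriched in members was not tested.

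Seed storage and late embryogenesis genes, taken as a marker list of seed RNA left in the seedlings, moved in the same comparisons. In red light 5 of 11 were listed and all 5 were lower, from -7.24 to -2.50, and in MLB over EMS27 5 of 11 were listed and all 5 were higher in EMS27, from -3.72 to -1.97 in the authors' deposited tables. Over all genes tested, 6.76% were listed as lower in red light and 1.85% as higher in EMS27. Of the 11 genes, 3 were listed in both comparisons and 4 in neither. Their part in the POR values was not tested.

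The bases before each gene start were then read for short motifs, since PORA and PORB moved together. The 180 bases that end at the base before the annotated start are given for these genes and for CAO and CRD1, which hold G-boxes, in the direction of transcription, from TAIR10.1. Capitals mark the matches to the evening element (AAATATCT), the CCA1-binding site (AAAAATCT), the G-box (CACGTG), an E-box bound by phytochrome-interacting factors (CACATG) and a motif associated with GLK factors (CCAATC), each searched on both strands. The regions are chr5:21992815-21992994 (minus strand), chr4:13725366-13725545 (plus), chr1:16851272-16851451 (minus) and chr3:21076325-21076504 (plus), in the order printed.
PORA: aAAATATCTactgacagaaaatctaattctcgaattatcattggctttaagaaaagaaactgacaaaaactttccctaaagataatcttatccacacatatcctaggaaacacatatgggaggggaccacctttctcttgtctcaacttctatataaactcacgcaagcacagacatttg
PORB: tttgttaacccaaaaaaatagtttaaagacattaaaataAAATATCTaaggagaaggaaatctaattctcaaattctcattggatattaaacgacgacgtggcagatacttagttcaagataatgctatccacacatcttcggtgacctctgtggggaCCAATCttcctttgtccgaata
CAO: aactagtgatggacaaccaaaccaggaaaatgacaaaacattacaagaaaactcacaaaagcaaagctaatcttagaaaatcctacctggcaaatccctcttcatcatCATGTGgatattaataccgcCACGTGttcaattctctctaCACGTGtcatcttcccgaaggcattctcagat
CRD1: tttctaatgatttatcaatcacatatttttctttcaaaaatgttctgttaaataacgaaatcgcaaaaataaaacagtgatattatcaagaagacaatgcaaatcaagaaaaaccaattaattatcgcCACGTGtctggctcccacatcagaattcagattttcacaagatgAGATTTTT

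In windows of 250 bases before the start, PORA and PORB were the 2 of the 10 genes with an evening element, a clock-associated motif, which lies in 4.79% of 27443 such windows of protein-coding genes. It begins 179 bases before the start of PORA and 141 bases before that of PORB. Downstream of it both windows hold the run aaatctaattctc, the longest they share, and over 141 aligned bases of the printed stretches 71.6% were identical. The 2 matches lie in like sequence and are not independent of each other.

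The G-box lies in 6.49% of all windows and was found at 2 places before CAO and at 1 before CRD1, and in each gene a G-box begins 52 bases before the start. The windows of CAO, GUN4 and CRD1 held the remaining matches outside the POR genes. The windows of PORC, HEMA1, CHLH, CHLG and DVR held none of the 5 motifs, although all but CHLG rose in red light. A match is a string of letters and not a shown binding site. The windows of 5 of the 10 genes run into another annotated locus. Those of PORC and GUN4 lie wholly inside AT1G03620 and AT3G59410, which holds both GUN4 matches. The window of DVR shares 214 bases with AT5G18661, that of CRD1 61 with AT3G56930, and that of PORB 64 with AT4G27435, which holds the farther of its 2 CCAATC matches. The 4 stretches printed above run into no other locus.

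**Figure D5:**
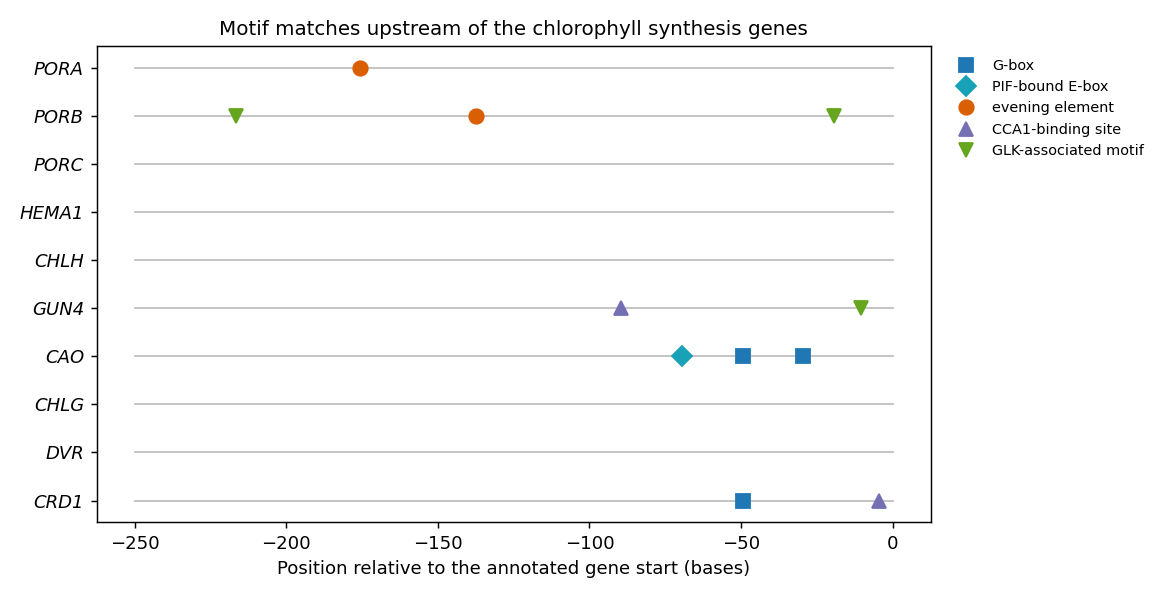
Matches to the 5 motifs in the 250 bases before the annotated start of each of the 10 genes (x axis, distance in bases; y axis, gene; symbols, motif). PORA and PORB carry the evening element at 179 and 141 bases, CAO and CRD1 a G-box at 52 bases, and the lines of PORC, HEMA1, CHLH, CHLG and DVR are empty.

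No splicing event in any of the 10 genes was listed, among 325 events in 264 genes for MLB and EMS27 and 328 events in 270 genes for Col-0 and rrc1-689. Of these listed events, limma called 89.5% and 88.7% at an adjusted p below 0.05. The events had already been listed as different in the same libraries, so these shares are no independent check. An event was listed only where the included or retained fraction differed by more than 0.05 with an FDR below 0.05. Few genes held a listed event, 264 and 270 beside 19143 genes tested in the gene comparison of MLB and EMS27. A count of 0 among 10 genes therefore says little about these genes. The event reads of a library summed to between 24482 and 38559 over listed events, which is not its depth. GUN4 and DVR have no intron in their longest transcript, and the other 8 genes have 2 to 13.

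Of the other tetrapyrrole genes, HEME1 held 1 event, in Col-0 and rrc1-689. It is an annotated retained intron of 82 bases (chr3:5022584-5022665), which the coding span of none of the 3 coding models encloses. The retained level was 36.3%, 37.9% and 39.6% in the Col-0 libraries and 26.4%, 24.9% and 26% in the rrc1-689 libraries. The means were 37.9% ± 1.63 (SD, n = 3) in Col-0 and 25.8% ± 0.746 in rrc1-689. The logit of the level in rrc1-689 minus that of Col-0 was -0.57 ± 0.21 (SE), with an adjusted p of 0.0352 in limma over the 328 events. Leaving out any 1 library gave adjusted p-values of 0.0511 to 0.0775. The event was listed because it differed between these same libraries, so neither the gap nor the p-value is an independent test. The level rests on 281 to 361 boundary reads and 216 to 543 spliced reads per library. The authors' entry for HEME1 names AT3G14920 as overlapping it, and the event was not listed for MLB and EMS27.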

How the data were processed

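Members and lists were chosen with earlier results of these data known. Reads were aligned with TopHat2 2.1.1 to TAIR10, per the submitters' processing notes, and compared with ASpli 1.9, per the deposited information sheets. The authors deposited log2 fold changes with p-values and FDR for listed genes, and, for listed splicing events, raw junction read counts per library and the inclusion fraction per group. Gene calls were counted as the authors made them. The count of tested genes, 19916 and 19143, follows from FDR = p × N / rank (98% and 96.9% of listed genes at a whole rank within 0.01).

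Retained levels were computed as included or boundary reads over these plus the excluding reads, the latter doubled except at alternative splice sites, which returned the deposited fractions within 0.0001 in all 653 events. Logit-transformed levels of single libraries (0.5 added to each read sum) were tested with limma 3.58.1 (R 4.3.3) and Benjamini-Hochberg adjustment over all listed events of a table, two-sided, at 0.05, using the groups compared. An exact permutation test of 1 event cannot pass 0.05 at 3 libraries a group. Of 24 libraries, 12 had columns of their own.

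Sequences, exons and strands came from the TAIR10.1 annotation by RefSeq, in Biopython 1.88. Start and end were the same as the authors' for 4975 of 4978 rows, and 427 of 432 of their intron bins began with GT and ended with AG in TAIR10.1, so coordinates were used together. Named were all 10 members, every other listed tetrapyrrole gene and every event in them. No protein sequences were used here.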

Additional observations from a re-analysis of the deposited data

How the results depend on the processing

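With an absolute log2 fold change above 2, the members listed for MLB over EMS27 numbered 1 in place of 2, as did the tetrapyrrole genes, and the tetrapyrrole genes listed for red over dark numbered 10 in place of 21. The members listed for red over dark numbered 7 in place of 9. At an FDR below 0.0001 these 4 counts were the same as at 0.01. The count of splicing events called in members was 0 in both tables under every setting run, the 6 fits per table without 1 library each included, because no event of a member was listed. Over the listed splicing events, deviations of same-numbered libraries correlated at -0.078 to 0.109, so no pairing by replicate number was seen in these levels. Pairing in other measures was not tested. With the replicate block, the HEME1 difference was -0.57 with an adjusted p of 0.0784, and calls over all events numbered 276 in place of 291 for MLB and EMS27 and 284 in place of 291 for Col-0 and rrc1-689. Over its 10 alternatives the HEME1 adjusted p ranged from 0.00742 to 0.0784. Without 1 library each the difference ranged from -0.60 to -0.53. The fit over all 4 red-light groups was not run for HEME1, since its event stood in 1 table. Values per library of the gene comparisons were not used here, so no gene value could be refitted.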

Other observations

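The motif that PORA and PORB share was set beside its share in the genes of each call, as a description. The evening element lay in 7.69% of 325 windows of genes listed as higher in EMS27, PORA and PORB among them, and in 4.29% of 722 windows of genes higher in MLB. In red light over darkness the shares were 5.07% of 2368 windows of genes that rose and 5.35% of 1196 windows of genes that fell, against 4.79% of all windows. The G-box, which neither PORA nor PORB holds in its window, lay in 21.2% of the windows of genes higher in EMS27, in 8.45% of those higher in MLB and in 6.49% of all windows. For the E-box CACATG, also absent from both windows, the shares in the same order were 18.5%, 10.2% and 11.1%. For the CCA1-binding site they were 6.46%, 5.26% and 6.69%, and for the GLK-associated motif 7.08%, 11.9% and 10.2%.

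Of 3 pairs of gene copies outside the POR genes whose coding sequences were aligned, both copies were listed for red light over darkness in 2. HEMA1 was listed and HEMA2 had no row, which is no test of a difference between them, and their coding sequences were identical at 83.1% of aligned bases, about the likeness of PORA and PORB (83.3%). CHLI1 and CHLI2, identical at 82%, were both listed, at 2.12 and 1.46 in the authors' deposited table. HEME1 and HEME2, identical at 61.7%, were both listed, at 2.03 and 1.32 in the authors' deposited table.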
